A study of Mus musculus with 12 samples.

Results

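Tetraspanins are small membrane proteins that cross the membrane repeatedly and gather integrins, immunoglobulin-domain proteins and proteases into shared patches of membrane. Some stay mainly at the cell surface, where they tune adhesion, migration and cell fusion, and others, with Cd63 as the textbook case, cycle through late endosomes and lysosomes and leave the cell on exosomes. In the heart they are found on muscle cells, endothelium, fibroblasts and blood-derived cells alike. The transcripts of 10 tetraspanin genes, named by their symbols, were followed across 3 groups of mice. All 10 were found among the 56647 gene rows with a value in every library, and all 10 were among the 9505 genes with enough counts to be tested. The set was drawn up with results of ligated against sham mice already known, in which Cd63 and Tspan13 had stood out. Members were thus in part selected on their measured MI against sham vehicle differences. For the members, that comparison is given as a description without a test.

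Heart muscle of wild-type mice was the tissue, and the 3′ ends of its polyadenylated RNA were sequenced with a modified CEL-Seq2 protocol. In 4 mice the left coronary artery was ligated, which causes myocardial infarction (MI), and NECA, an adenosine analogue that stimulates the adenosine receptors and is broken down slowly, was delivered locally into the infarcted muscle. A further 3 mice had the ligation alone, with no vehicle named in their labels, and 3 mice carried labels of sham and vehicle. These groups are called NECA-treated MI, MI and sham vehicle. Should the MI mice have had no injection, effects of NECA and of the injection cannot be told apart, and the same holds for ligation and the missing vehicle. Strain, age, sex, the time after ligation and how much border or remote tissue was taken are not given in the labels. The labels number the mice and name no litter, so p-values measure the spread between these mice.

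MI mice 2 and 3 were each sequenced as a 1st and a 2nd library. The 1st libraries held 30.7 and 27.1 M counts, with M for 1000000, against 0.96 to 1.33 M in the 10 other libraries, and the set of gene rows with values differed from that of the others, so 1 library of like depth per mouse was used and the 1st libraries are given beside it. Values are counts per 1 M counts of a library (CPM). Cardiomyocyte markers were present in every mouse, with a summed level of 65012 to 70926 CPM in NECA-treated MI, 47040 to 64421 CPM in MI and 64294 to 73466 CPM in sham vehicle mice. MI mouse 3 and sham vehicle mouse 3 stood apart. MI mouse 3 had the lowest cardiomyocyte sum and 12705 CPM of fibroblast markers, against at most 5941 CPM in any other mouse. Sham vehicle mouse 3 had 6424 CPM of atrial markers, 729 CPM of adipocyte markers and 365 CPM of mesothelial markers, each the highest of the 10 mice, and MI mouse 3 came second in atrial markers with 3831 CPM. For several results that rest on these mice, values without them are also given.

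Per transcript length, Cd81 was the most abundant of the 10. This surface tetraspanin, which forms part of the B cell co-receptor, averaged 172 ± 29.7 TPM, a unit scaled by transcript length (SD over 10 mice), and ranked first in 10 of 10 mice. Cd151, a partner of laminin-binding integrins, averaged 102 ± 15.4 TPM and ranked second in 8 of 10 mice. Tspan3 followed with 71.6 ± 6.95 TPM and Cd63 with 64.9 ± 34.9 TPM, and these neighbours overlapped within their spread. By this measure Cd63 ranked 4, 3, 4 and 4 in NECA-treated MI mice 1 to 4, 3, 3 and 2 in MI mice 1 to 3, and 5, 4 and 4 in sham vehicle mice 1 to 3. Tspan9 ranked 8, 6, 7 and 7 in NECA-treated MI, 7, 9 and 8 in MI, and 6, 5 and 5 in sham vehicle mice. A rank among 10 genes also shifts when the levels of the others differ. Tspan4, a protein of migrasomes, averaged 34.7 ± 12.8 TPM, Tspan13 26.0 ± 8.17 TPM, Tspan9, known from platelets, 23.8 ± 7.22 TPM, and Cd9, known for its part in the fusion of egg and sperm, 21.1 ± 11.8 TPM. These 4 did not differ from their neighbours beyond their spread. Cd82, studied as a suppressor of metastasis, and Tspan18, a tetraspanin of endothelium that aids calcium entry, came last with 9.21 ± 4.22 and 4.26 ± 2.85 TPM, again within the spread of their neighbours. Since 3′ reads do not scale with transcript length, the division by length in TPM makes this order approximate.

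Promoter sequences are shown for Cd63 and Tspan13, which had the highest fold changes in MI over sham vehicle mice, and for Cd81 and Cd9 as surface members beside them. They were taken from RefSeq windows on build GRCm38.p6 that run from 250 bases before to 50 bases after a transcript start. These windows were at hand for 9 of the 10 members, in 17 windows. Each stretch of 30 bases is written 5′ to 3′ on the strand of the gene, and capitals mark the GC box (GGGCGG on either strand) nearest to the start.
Cd63: ttctagaaaatggagaagctggggccataa
Tspan13: gacgaggcggcgGGGCGGggcgcgcgatcg
Cd81: ctgggcggggcctcggagGGGCGGgaccta
Cd9: aggtgggccgggGGGCGGggtcggcatccc
The Cd63 stretch lies at chr10:128909315-128909344 on the plus strand, directly before the start, and its window held no GC box. The Tspan13 stretch lies at chr12:36042514-36042543 on the minus strand, that of Cd81 at chr7:143052720-143052749 on the plus strand and that of Cd9 at chr6:125494803-125494832 on the minus strand. A GC box was present in 9 of the 17 member windows, from 7 members, and in 35.7% of all 32851 windows. TATAAA was present in 1 member window, of Cd81, and in 13.6% of all windows, and CACGTG in 1, of Tspan4, and in 7.15% of all. Both strands were searched, matches may overlap, and a match is a description of the letters alone.

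Cd63, the tetraspanin of late endosomes, lysosomes and exosomes, was higher in infarcted hearts with or without NECA than in sham vehicle hearts. It had 62.0, 75.6, 57.3 and 49.0 CPM in the 4 NECA-treated MI mice, 73.7, 66.9 and 142 CPM in MI mice 1 to 3, and 27.4, 27.8 and 44.0 CPM in the sham vehicle mice. Every infarcted mouse lay above every sham vehicle mouse, the NECA-treated MI and MI mice overlapped, and MI mouse 3 was far above the rest. Group levels were 61.0 ± 11.2 CPM in NECA-treated MI (n = 4), 94.1 ± 41.4 CPM in MI (n = 3) and 33.1 ± 9.46 CPM in sham vehicle mice (SD, n = 3). These rest on 32 to 136 counts per library. The 1st libraries of MI mice 2 and 3, with 2431 and 3443 counts of Cd63, gave 79.1 and 127 CPM.

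**Figure D1:**
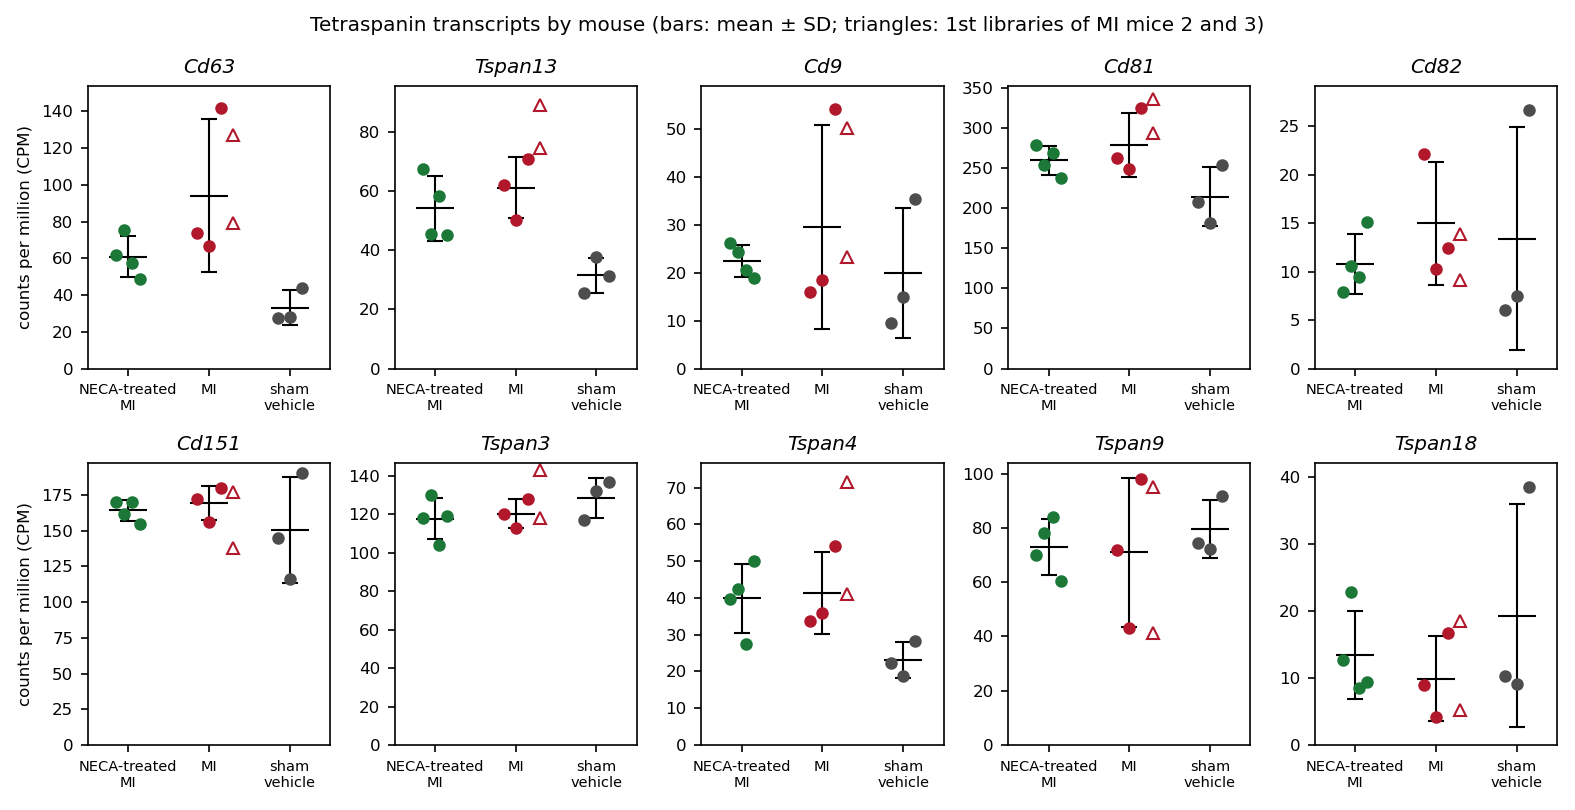
Counts per 1 M counts (CPM) of each of the 10 tetraspanins, 1 point per mouse, for NECA-treated MI (green), MI (red) and sham vehicle (grey), with lines for the mean ± SD and open triangles for the 1st libraries of MI mice 2 and 3. Cd63 and Tspan13 show both infarcted groups above all 3 sham vehicle mice, while Cd151, Tspan3 and Tspan9 overlap across the groups.

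Between MI and sham vehicle mice the log2 fold change of Cd63 was 1.41 ± 0.22 (SE, 95% interval 0.94 to 1.87), a 2.65-fold difference. It was 1.09 without MI mouse 3, 1.56 without sham vehicle mouse 3, and 1.24 without both, a setting chosen after the data were seen. Over all mice left out in turn it ranged from 1.09 to 1.56. No test is given, since this comparison chose the members. The interval is not corrected for that choice and is not to be read as a test.

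The comparison of NECA-treated MI with sham vehicle mice holds 4 mice that took no part in choosing the members, although it shares the sham vehicle mice. Cd63 had stood out in MI against these same sham vehicle mice. A higher level in NECA-treated MI than in sham vehicle mice is thus partly built in, and the interval given here is not corrected for it. Cd63 had a log2 fold change of 0.83 ± 0.22 (95% interval 0.38 to 1.28), with all 4 treated mice above all 3 sham vehicle mice, and did not pass the threshold over all genes (edgeR adjusted p = 0.573). The adjusted p was 0.193 without sham vehicle mouse 3 and 0.0616 without MI mouse 3, and ranged up to 0.994 over the mice left out. Cd63 passed with no filter on low counts (0.84, edgeR adjusted p = 0.0157), where 43 of 20308 genes passed. It also passed without both mice 3 (0.99, adjusted p = 0.0032, chosen after the data were seen), where 242 of 9560 genes passed. In the main fit 1 of 9505 genes passed. Cd63 did not pass with the libraries summed (0.909), the 1st alone (0.941), DESeq2 size factors (0.572) or no scaling (0.896). Nor did it in a fit of the 2 groups (0.109), with the replicate block (0.451), DESeq2 (0.579) or limma (0.939). In bulk tissue, fewer cells of a type and less RNA per cell cannot be told apart.

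Between NECA-treated MI and MI mice the log2 fold change of Cd63 was -0.58 ± 0.20 (95% interval -0.99 to -0.17), and it did not pass (edgeR adjusted p = 0.793). MI mouse 3 carried much of that value. Without it the log2 fold change was -0.26 (adjusted p = 0.999), and over all mice left out in turn it ranged from -0.72 to -0.26. The 3 comparisons share mice, so their values for 1 gene are not independent. The MI mice took part in choosing the members, and Cd63 had stood out there as high. A lower level in NECA-treated MI mice is thus partly built in, and the interval is not corrected for it.

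**Figure D2:**
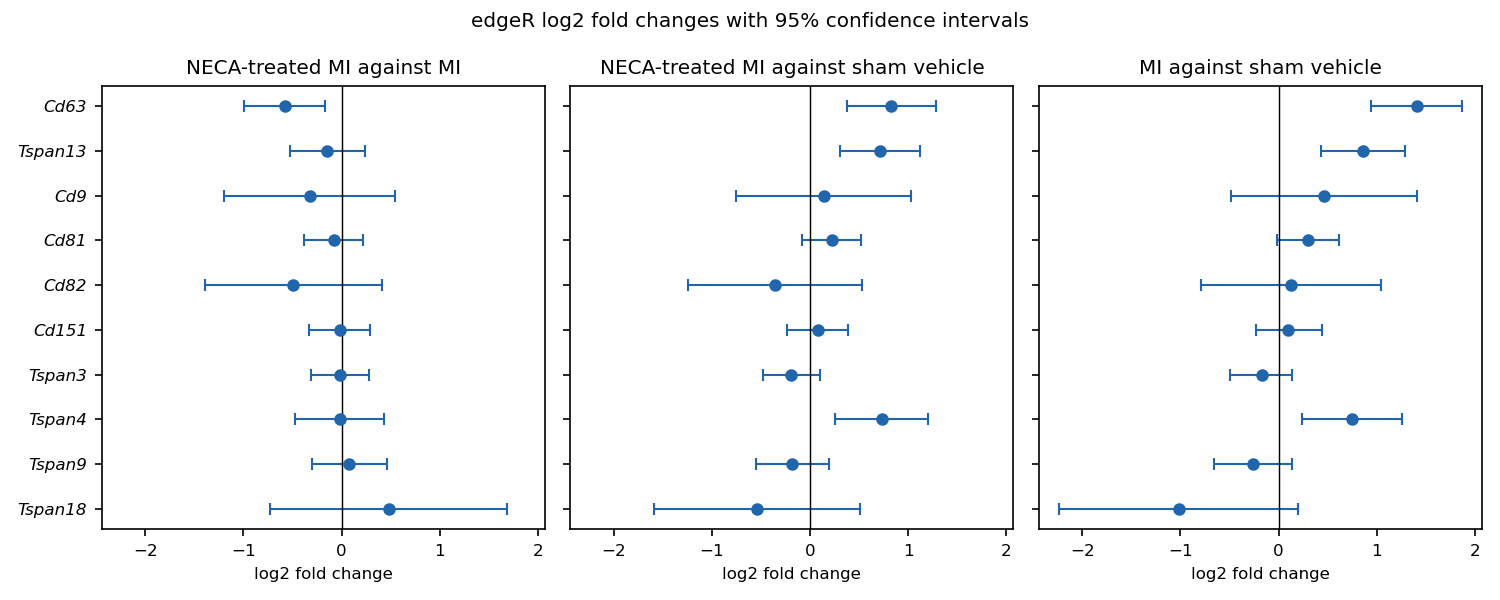
Log2 fold changes of the 10 tetraspanins from edgeR with 95% confidence intervals, for NECA-treated MI against MI, NECA-treated MI against sham vehicle and MI against sham vehicle. Cd63 sits at -0.58, 0.83 and 1.41, and the widest intervals are those of Cd9, Cd82 and Tspan18. MI against sham vehicle chose the members, and its intervals are not corrected for that choice. The other comparisons share mice with it, and their intervals are not corrected either.

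Tspan13, a tetraspanin reported to act on voltage-gated calcium channels, had the second highest fold change in MI over sham vehicle mice. It had 67.6, 45.5, 58.2 and 45.2 CPM in NECA-treated MI mice, 62.2, 50.4 and 70.8 CPM in MI mice, and 25.7, 37.6 and 31.4 CPM in sham vehicle mice. All 7 infarcted mice lay above all 3 sham vehicle mice, and the 2 infarcted groups overlapped. The log2 fold change was -0.15 ± 0.18 in NECA-treated MI against MI (adjusted p = 0.923), 0.71 ± 0.20 in NECA-treated MI against sham vehicle (95% interval 0.31 to 1.12, adjusted p = 0.587) and 0.86 ± 0.21 in MI against sham vehicle mice (edgeR). With sham vehicle mouse 3 and MI mouse 3 both left out, Tspan13 had 0.72 in MI against sham vehicle mice. Tspan13 too had stood out when the members were chosen, so its differences from the shared sham vehicle mice are partly built in. Its intervals are not corrected for that choice.

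The 2 libraries of MI mouse 2 disagreed on Tspan13. The 1st gave 89.2 CPM from 2744 counts and the 2nd 50.4 CPM from 49 counts, a ratio of 1.77 with a 95% interval of counting error of 1.33 to 2.40. In MI mouse 3 the ratio was 1.05 (0.83 to 1.36). Of all 9505 tested genes, 13.2% had a 1st library above and 17.7% below the 2nd beyond counting error in MI mouse 2, and 6.99% and 2.89% in MI mouse 3. With 1st and 2nd libraries summed, the MI against sham vehicle log2 fold change of Tspan13 was 1.19, and with the 1st alone 1.20, against 0.86 with the 2nd alone. For Cd63 the repeated libraries gave ratios of 1.18 (0.92 to 1.54) and 0.90 (0.75 to 1.07), which hold 1.

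**Figure D3:**
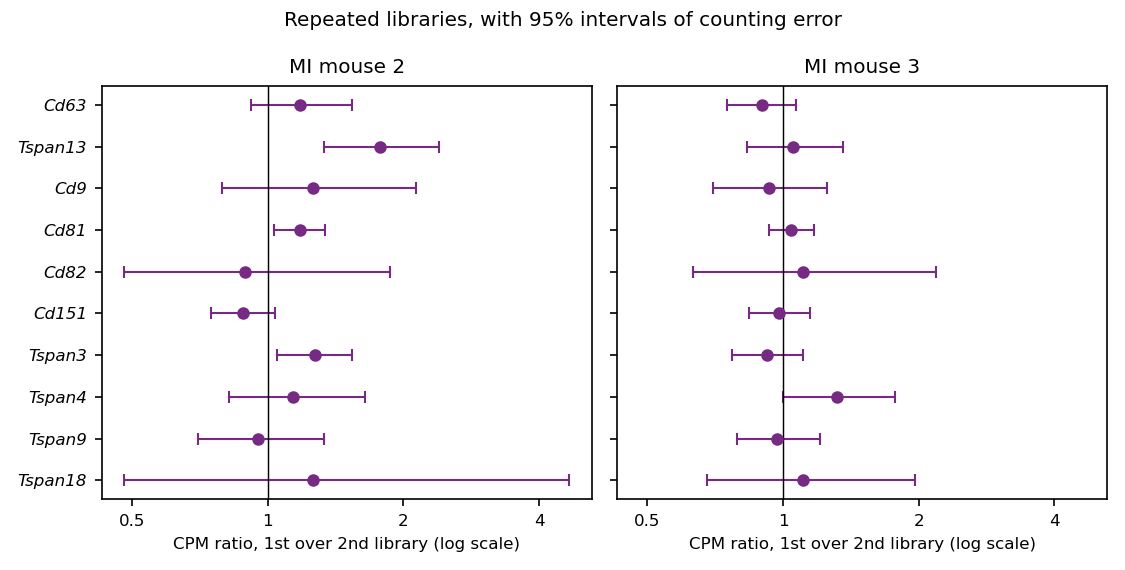
Ratio of CPM in the 1st over the 2nd library of MI mice 2 and 3 for each tetraspanin, on a log axis, with 95% intervals of counting error. In MI mouse 2 the intervals of Tspan13, Cd81 and Tspan3 lie above 1, and that of Tspan13 at 1.77 is the farthest, while in MI mouse 3 that of Tspan4, at 1.32, begins just above 1.

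Tspan4 was the third member whose MI mice all lay above the sham vehicle mice. It had 39.8, 42.3, 27.4 and 49.9 CPM in NECA-treated MI mice, 33.8, 36.0 and 54.2 CPM in MI mice, and 22.3, 18.8 and 28.3 CPM in sham vehicle mice. NECA-treated mouse 3 lay just under sham vehicle mouse 3. The log2 fold change was 0.73 ± 0.23 in NECA-treated MI against sham vehicle (95% interval 0.25 to 1.20, edgeR adjusted p = 0.715), -0.02 ± 0.22 in NECA-treated MI against MI (adjusted p = 0.993) and 0.75 ± 0.24 in MI against sham vehicle mice. In TPM the MI and sham vehicle mice overlapped. The 1st libraries of MI mice 2 and 3 gave 41.0 and 71.5 CPM of Tspan4, and in MI mouse 3 the ratio to the 2nd library was 1.32, with an interval that begins just above 1 and ends at 1.77. The strand of counting is not given, and Tspan4 overlaps Chid1 of the other strand, which had 17.0 to 25.4 CPM, so part of its reads could be those of Chid1.

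The abundant surface members differed less. Cd81 had 278, 254, 268 and 237 CPM in NECA-treated MI mice, 262, 249 and 324 CPM in MI mice, and 207, 181 and 254 CPM in sham vehicle mice. Sham vehicle mouse 3 reached into both infarcted groups. The log2 fold change of Cd81 was -0.08 ± 0.14 in NECA-treated MI against MI (adjusted p = 0.946) and 0.22 ± 0.14 in NECA-treated MI against sham vehicle mice (95% interval -0.08 to 0.52, edgeR adjusted p = 0.871), beside 0.30 ± 0.15 in MI against sham vehicle mice. Cd151 had 155 to 170 CPM in NECA-treated MI, 156 to 180 CPM in MI and 116 to 190 CPM in sham vehicle mice. Its log2 fold changes were -0.02, 0.08 and 0.10 in the same order of comparisons, each with a standard error of at most 0.16.

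Tspan3 and Tspan9 had slightly lower means in both infarcted groups than in sham vehicle mice. Tspan3 had 104 to 130 CPM in NECA-treated MI, 113 to 128 CPM in MI and 117 to 137 CPM in sham vehicle mice. It had the smallest spread of the 10 relative to its mean TPM, with log2 fold changes of -0.02 ± 0.14 in NECA-treated MI against MI, -0.19 ± 0.14 in NECA-treated MI against sham vehicle and -0.17 ± 0.15 in MI against sham vehicle mice. Tspan9 had 60.3 to 83.9 CPM, 43.2 to 97.9 CPM and 72.2 to 91.9 CPM in NECA-treated MI, MI and sham vehicle mice, and its log2 fold changes in the same order of comparisons were 0.08, -0.18 and -0.26. MI mouse 2 was lowest, with 43.2 CPM in its 2nd and 41.2 CPM in its 1st library, so the repeat gave the same low level. For both genes the groups overlapped in every comparison.

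Cd9, Cd82 and Tspan18 followed single mice. Cd9 had 26.2, 24.4, 20.5 and 18.8 CPM in NECA-treated MI mice, 16.0, 18.5 and 54.2 CPM in MI mice, and 9.43, 15 and 35.4 CPM in sham vehicle mice. The high values were those of the mice numbered 3 in the MI and sham vehicle groups, and the 1st library of MI mouse 3 gave 50.3 CPM. The MI against sham vehicle log2 fold change of 0.46 ± 0.44 was -0.20 without MI mouse 3 and 1.04 without sham vehicle mouse 3. For NECA-treated MI against MI it was -0.32 ± 0.40 (edgeR adjusted p = 0.923), and 0.34 without MI mouse 3.

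Cd82 had 7.95, 10.6, 9.4 and 15.1 CPM in NECA-treated MI mice, 22.2, 10.3 and 12.5 CPM in MI mice, and 6, 7.52 and 26.7 CPM in sham vehicle mice. Sham vehicle mouse 3 and MI mouse 1 were the highest. They also had the largest and the second largest sums of mesothelial markers of the 10 mice, 365 and 234 CPM. NECA-treated mouse 1 had the next largest, 156 CPM, and the lowest Cd82 of the infarcted mice. The part of these cells in the result was not tested. The MI against sham vehicle log2 fold change of Cd82 was 0.13 ± 0.44, 0.98 without sham vehicle mouse 3 and 1.16 without both mice numbered 3. Tspan18 had 12.7, 22.8, 8.56 and 9.4 CPM in NECA-treated MI mice, 8.88, 4.12 and 16.7 CPM in MI mice, and 10.3, 9.02 and 38.5 CPM in sham vehicle mice. Sham vehicle mouse 3 was again the highest. The MI against sham vehicle log2 fold change of Tspan18 was -1.02 ± 0.56, and -0.16 without that mouse. Cd82 and Tspan18 are neighbours on chromosome 2 with 0 protein-coding genes between them in GENCODE M21. Over the 10 mice their log2 CPM correlated at r = 0.33, a description over mice that share groups.

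In total, 0 of the 10 members passed in NECA-treated MI against MI (edgeR adjusted p under 0.05), where 0% of all tested genes did. At an unadjusted p under 0.05 there were 1 member, Cd63, and 577 of 9505 genes (6.07%), and DESeq2 called 0 genes. The MI mice of this comparison took part in choosing the members. Groups overlapped for 10 of 10 members, where 7.36% of all tested genes did not overlap. Against sham vehicle, 0 members passed in NECA-treated MI mice, where 0.0105% of all tested genes did. At an unadjusted p under 0.05 there were 3 members, Cd63, Tspan13 and Tspan4, and 573 genes (6.03%), and DESeq2 called 0 members. The sham vehicle mice took part in choosing the members, so the counts in this comparison are partly built in, and nothing is read from them. The treated mice lay wholly above the sham vehicle mice in 2 members, Cd63 and Tspan13, as did 5.12% of all tested genes. In MI against sham vehicle mice that count was 3 members, beside 7.72% of all tested genes, in the comparison that chose them, and nothing is read from it. The median log2 fold change of the 10 members was -0.05, 0.11 and 0.21 in these 3 comparisons, and -0.01 over all tested genes in each.

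Cd63 was then set against another tetraspanin of the same library. The ratio reuses the Cd63 counts given above, in part those that chose the gene, so it is no further support. The share of all genes that lie apart in such a ratio was not computed. Per 100 counts of Cd81, Cd63 had 22.3, 29.8, 21.4 and 20.6 counts in NECA-treated MI mice, 28.1, 26.9 and 43.7 counts in MI mice, and 13.3, 15.4 and 17.3 counts in sham vehicle mice. All infarcted mice lay above all sham vehicle mice. Tspan13 per 100 counts of Cd81 was 24.4, 17.9, 21.7 and 19.0 in NECA-treated MI mice, 23.7, 20.2 and 21.9 in MI mice, and 12.4, 20.7 and 12.4 in sham vehicle mice. Here sham vehicle mouse 2 reached into both infarcted groups. Such a ratio shows unequal levels within a library and not which of the genes differed.

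**Figure D4:**
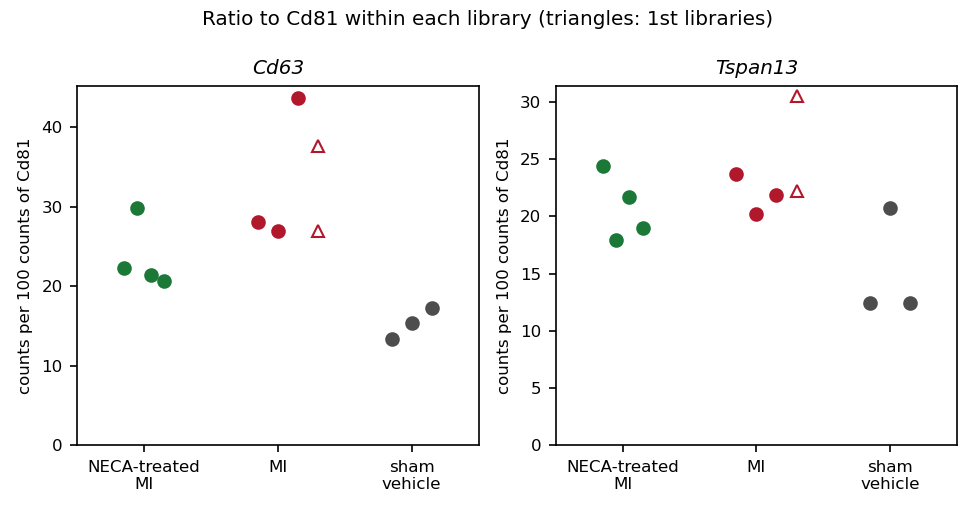
Counts of Cd63 (left) and Tspan13 (right) per 100 counts of Cd81 in each library, 1 point per mouse, with open triangles for the 1st libraries of MI mice 2 and 3. For Cd63 the lowest infarcted mouse, at 20.6, lies above the highest sham vehicle mouse, at 17.3, while for Tspan13 sham vehicle mouse 2 lies among the infarcted mice.

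Markers of some other cell types, though not of all, tended to be high where Cd63 was high. The 16 macrophage markers summed to 680, 966, 691 and 567 CPM in NECA-treated MI mice, 648, 420 and 1374 CPM in MI mice, and 290, 245 and 593 CPM in sham vehicle mice. The 10 fibroblast markers summed to 4011, 5941, 3721 and 2432 CPM in NECA-treated MI mice, 3290, 2298 and 12705 CPM in MI mice, and 1405, 1404 and 3649 CPM in sham vehicle mice. The 9 markers of mural cells, the smooth muscle cells and pericytes of vessel walls, summed to 724, 975, 756 and 758 CPM in NECA-treated MI mice, 783, 718 and 1200 CPM in MI mice, and 629, 574 and 664 CPM in sham vehicle mice. The mural sum, like Cd63, was higher in every infarcted mouse than in every sham vehicle mouse. In all 3 sums MI mouse 3, the highest in Cd63, was also the highest. NECA-treated mouse 4 and MI mouse 2 had less of the macrophage and fibroblast sums than sham vehicle mouse 3 and more Cd63, with 49.0 and 66.9 CPM, against 44.0 CPM in sham vehicle mouse 3. Of the macrophage markers, 15 of 16 had a higher mean in MI than in sham vehicle mice, and the groups were apart in 4. Of the fibroblast markers these numbers were 9 of 10 and 2, and of the mural markers 8 of 9 and 2. In NECA-treated MI against sham vehicle mice they were 15 of 16 and 6 for macrophage and 9 of 10 and 1 for fibroblast markers. For mural markers they were only 4 of 9 and 2, so the mural sum does not stand for most of its markers there. The part of these cells in the Cd63 result was not tested. The 10 endothelial markers summed to 993 to 1168 CPM in NECA-treated MI, 1053 to 1229 CPM in MI and 982 to 1357 CPM in sham vehicle mice. Their sum was highest in sham vehicle mouse 3, as were the sums of T cell, adipocyte and mesothelial markers. Platelet markers, of interest since platelets carry Cd63 and Cd9, summed to 6.59 to 22.9 CPM in all 10 mice, and mast cell markers to at most 26.6 CPM with Ms4a2 at 0 counts in every mouse.

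**Figure D5:**
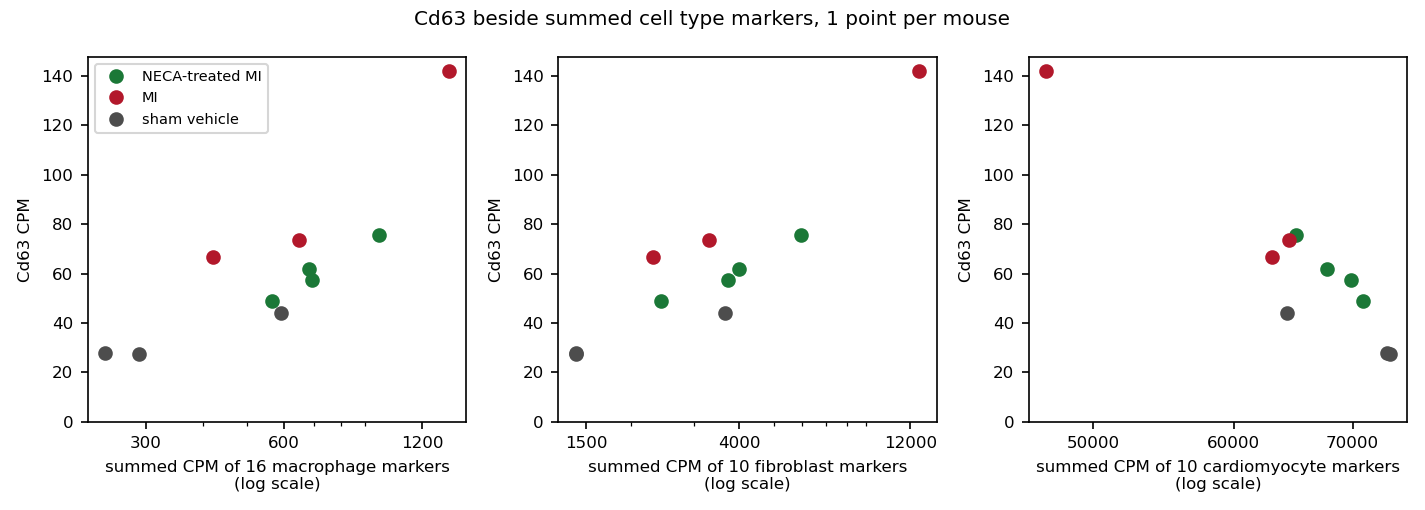
Cd63 in CPM against the summed CPM of macrophage, fibroblast and cardiomyocyte markers on log axes, 1 point per mouse, for NECA-treated MI (green), MI (red) and sham vehicle (grey). MI mouse 3 stands alone at 142 CPM of Cd63, with the highest macrophage and fibroblast sums and the lowest cardiomyocyte sum, and in the fibroblast plot sham vehicle mice 1 and 2 coincide.

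Across the 10 mice the transcripts most like Cd63, among 5532 genes with at least 20 CPM on average, were Mmp2, a matrix metalloproteinase (r = 0.968 of log2 CPM), Tpm4, a tropomyosin (0.958), the transcriptional coactivator Wwtr1 (0.955), Ehd2, a protein of caveolar necks (0.947), and the actin-binding Tmsb4x (0.934). The most like Tspan13 were Cav1, the caveolin of endothelium (0.894), the syntaxin Stx16 (0.884), the ceramide synthase Cers5 (0.873), AW549877 (0.872) and Rgcc (0.860). Mean levels of Mmp2 were 82.3, 159 and 26.1 CPM in NECA-treated MI, MI and sham vehicle mice, and those of Cav1 were 283, 325 and 203 CPM. Among the members themselves Cd63 correlated at 0.83 with Cd81, 0.75 with Tspan4 and 0.74 with Tspan13, while Cd81 and Tspan3 had r = -0.85. These values mix differences between and within groups and describe these 10 mice. MI mouse 3 and sham vehicle mouse 3 are included, and correlations without them were not computed.

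The lists of genes around the tetraspanins were read beside the share of all tested genes past the threshold, which was 0% in NECA-treated MI against MI, 0.0105% in NECA-treated MI against sham vehicle and 0.0736% in MI against sham vehicle mice. With shares this low, a list of this size with 0 calls does not stand out. Of 21 further tetraspanin genes 19 had a count, 10 had enough counts to be tested, and 0 rose or fell in any of the 3 comparisons (smallest edgeR adjusted p = 0.383). The most abundant were Tspan7, at 80.4 ± 8.29, 82.9 ± 6.96 and 79.8 ± 9.46 CPM in NECA-treated MI, MI and sham vehicle mice, and Tspan31, at 33.3 ± 8.01, 42.4 ± 17.4 and 33.2 ± 6.26 CPM (SD). Of 16 known partners of tetraspanins 15 were tested and 0 passed (smallest adjusted p = 0.177). The fatty acid receptor Cd36, the partner of highest level, had 843 ± 54.1, 745 ± 160 and 825 ± 112 CPM, and the integrin chain Itgb1 had 287 ± 11.2, 322 ± 67.4 and 244 ± 21.4 CPM in the same order of groups. Of 24 genes of exosome formation 22 were tested and 0 passed (smallest adjusted p = 0.384), with Hspa8 at 1053 ± 57.5, 1204 ± 125 and 1052 ± 234 CPM and Flot1 at 123 ± 6.17, 131 ± 23.2 and 107 ± 18.5 CPM. The median log2 fold changes in NECA-treated MI against MI, NECA-treated MI against sham vehicle and MI against sham vehicle mice were -0.16, -0.04 and 0.01 for the further tetraspanins, -0.25, 0.17 and 0.35 for the partners and -0.08, 0.06 and 0.08 for exosome formation.

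Among 20 genes of endosome and lysosome membranes, all tested, 0 rose and 1 fell, Tfrc, the transferrin receptor that carries iron into the cell through endosomes. Tfrc had 54.9, 43.1, 31.7 and 50.9 CPM in NECA-treated MI mice, 40.0, 28.8 and 21.9 CPM in MI mice, and 191, 154 and 103 CPM in sham vehicle mice. Every infarcted mouse lay below every sham vehicle mouse, and the 2 infarcted groups overlapped. Tfrc fell in MI against sham vehicle mice, with a log2 fold change of -2.39 ± 0.34 (edgeR adjusted p = 0.036). The list was drawn up with earlier results of these data known, and the adjusted p of Tfrc is not corrected for that. That call was lost without sham vehicle mouse 2 (adjusted p = 0.241), MI mouse 2 (0.0904) or MI mouse 3 (0.3), without NECA-treated mouse 1, 2 or 4 (0.0581, 0.0764 and 0.0612), with the libraries summed (0.0554) or the 1st alone (0.0556), with limma (0.207) and in a fit of the 2 groups alone (0.201), while the log2 fold change stayed between -2.66 and -2.10 over the mice left out. Set against sham vehicle, NECA-treated MI mice had -1.81 ± 0.29 and did not pass (adjusted p = 0.147), although it passed with DESeq2 (adjusted p = 1.36e-05), with no scaling (0.00515), with no filter on low counts (3.52e-19) and without sham vehicle mouse 3 (4.86e-05). Between NECA-treated MI and MI mice it was 0.58 ± 0.35 (adjusted p = 0.835). Erythroid markers, given here because red cell precursors carry much Tfrc, summed to 830 to 922 CPM in NECA-treated MI, 731 to 2589 CPM in MI and 1107 to 3679 CPM in sham vehicle mice, and their part in this result was not tested. The lysosomal protein gene Lamp1 had 361 ± 42.6, 377 ± 49.7 and 355 ± 21.6 CPM and the late endosomal Rab7 180 ± 6.69, 181 ± 8.20 and 177 ± 9.68 CPM in NECA-treated MI, MI and sham vehicle mice, and for both genes the groups overlapped. The median log2 fold change of the list was -0.02, 0.08 and 0.13 in NECA-treated MI against MI, NECA-treated MI against sham vehicle and MI against sham vehicle mice.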

How the data were processed

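The authors deposited expected counts from RSEM, rounded to whole numbers, and log2(TPM + 1) values, both with 1 column per library. Per the submitters' processing notes, the tools were FastQC 0.11.9, STAR and RSEM and the build was GRCm39. Not given in the sources used here are the annotation, any collapsing of reads by molecular identifier, and strand. Of 57054 gene rows, 306 had values only in the 1st libraries of MI mice 2 and 3 and 101 lacked values only there, and the 56647 others were used. GENCODE M21 gave symbols, through the Ensembl identifiers, for 52029 rows and all 10 members. RSEM divides reads among near-identical genes. The pseudogene Cd63-ps had at most 2 counts in any of the 10 libraries and Cd9-ps had 0.

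The test was that of edgeR 4.0.16 (R 4.3.3, filterByExpr, TMM, robust quasi-likelihood, two-sided) in 1 fit of all 10 mice, 1 library each, with the 2nd library for MI mice 2 and 3 and Benjamini-Hochberg adjusted p under 0.05 over 9505 genes. Printed CPM are relative to library totals and fold changes are on the TMM scale. A count of 0 in the smallest library allows up to 3.13 CPM, taken as 3 counts, and such limits and the intervals of library ratios cover counting error only. Members, gene lists and tests were chosen with earlier results of these data known. By rule, the 10 members were named everywhere, with the 2 genes of highest level of each list and any past the threshold, and the 5 genes most correlated with Cd63 and Tspan13. Alternatives were summed and 1st libraries, DESeq2 size factors or none, no count filter, DESeq2 1.42.0, limma 3.58.1 on log2(TPM + 1), fits of 2 groups, a replicate block and leaving out each mouse. The labels number mice in each group and do not say whether the numbers mark pairs. Over 9 same-numbered pairs, deviations from the group means correlated at -0.23 to 0.19.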

Additional observations from a re-analysis of the deposited data

How the results depend on the processing

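Of 7 genes past the threshold in MI against sham vehicle mice, the count was 15 with the libraries summed, 12 with the 1st library alone, 191 with no filter on low counts, 17 with DESeq2, 0 in a fit of the 2 groups alone and 0 with limma (with 728 and 897 at an unadjusted p under 0.05), 69 with both mice numbered 3 of these groups left out, and 0 to 50 with 1 mouse left out. Between NECA-treated MI and MI mice it was 0, against 1 with the libraries summed or the 1st alone, 8 with no filter and 0 to 2 with 1 mouse left out. Between NECA-treated MI and sham vehicle mice it was 1, against 0 with the libraries summed or the 1st alone, 4 with no scaling, 43 with no filter, 7 in a fit of the 2 groups, 5 with DESeq2, 0 with limma, 242 without both mice numbered 3 and 0 to 7 with 1 mouse left out. The cause of these differences was not tested. Leaving out sham vehicle mouse 3 and MI mouse 3 together was chosen after the data were seen.

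Same-numbered mice of different groups correlated at -0.23 to 0.19 in their deviations from the group means, with 2 of 9 pairs over 0.1. These were sham vehicle and MI mice 2 (0.162) and sham vehicle and MI mice 3 (0.191). Of 9 mice, 1 was best matched by its own number. With groups of 3 or 4 mice, such correlations cannot decide whether mice were paired. With the replicate block over mice 1 to 3, 9, 0 and 4 genes passed in MI against sham vehicle, NECA-treated MI against MI and NECA-treated MI against sham vehicle mice, and no call of a member changed in the comparisons of NECA-treated MI mice. Tfrc passed with the block in NECA-treated MI against sham vehicle mice (-1.87, edgeR adjusted p = 4.62e-05).

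The sign of several members turned under some settings. In MI against sham vehicle mice Cd82 was -0.03 with the libraries summed and with the 1st alone, and with 1 mouse left out the ranges that crossed 0 were -0.20 to 1.04 for Cd9, -0.29 to 0.98 for Cd82 and -0.02 to 0.21 for Cd151. In NECA-treated MI against MI mice Cd151 was 0.06 with the libraries summed and with the 1st alone, and Cd9 and Tspan4 were 0.34 and 0.14 without both mice numbered 3. With 1 mouse left out, the ranges that crossed 0 were -0.62 to 0.34 for Cd9, -0.05 to 0.00 for Cd151, -0.05 to 0.03 for Tspan3, -0.17 to 0.14 for Tspan4 and -0.13 to 0.29 for Tspan9. Between NECA-treated MI and sham vehicle mice Cd82 was 0.23 with limma and 0.49 without both mice numbered 3, and Tspan18 was 0.32 without them. The ranges there were -0.13 to 0.72 for Cd9, -0.64 to 0.50 for Cd82, -0.05 to 0.18 for Cd151 and -0.90 to 0.33 for Tspan18. Cd63, Tspan13 and Cd81 kept their direction in all 3 comparisons under every setting run. For Cd63 and Tspan13 the direction in MI against sham vehicle mice was known when the members were chosen. At about 1 M counts a library, members under 20 CPM rest on few counts, down to 4 for Tspan18.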

Other observations

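A direct partner of tetraspanins and a tetraspanin of white blood cells were picked out of the lists after their values were seen. Igsf8 binds Cd9 and Cd81 through its membrane part. It had 17.5, 13.8, 12 and 8.48 CPM in NECA-treated MI mice, 19.5, 20.6 and 32.3 CPM in MI mice, and 8.58, 9.02 and 10.2 CPM in sham vehicle mice. These rest on 9 to 31 counts per library. All MI mice lay above all sham vehicle mice, as in 7.72% of all tested genes. They also lay above all NECA-treated MI mice, a comparison in which 7.36% of all tested genes did not overlap in either direction. The log2 fold change was -0.85 ± 0.28 in NECA-treated MI against MI (edgeR adjusted p = 0.793), 0.43 ± 0.31 in NECA-treated MI against sham vehicle (0.887) and 1.28 ± 0.31 in MI against sham vehicle mice (0.177), so none passed over all genes.

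Cd53, a tetraspanin of white blood cells, had 15, 11, 13 and 7 counts in NECA-treated MI mice, 5, 6 and 17 counts in MI mice, and 0, 0 and 9 counts in sham vehicle mice. Sham vehicle mouse 3, which also had the highest sums of atrial, adipocyte and mesothelial markers, was the only sham vehicle mouse with a count. In sham vehicle mice 1, 2 and 3 the macrophage sums were 290, 245 and 593 CPM and the B cell sums 12, 5.26 and 160 CPM. Those of T cell markers were 1.72, 0.752 and 20.4 CPM and those of neutrophil markers 9.43, 3.76 and 6.29 CPM. The part of any of these cells in the Cd53 counts was not tested. The log2 fold change of Cd53 in NECA-treated MI against sham vehicle mice was 1.95 ± 0.74 (edgeR adjusted p = 0.821).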
